A study of Mus musculus with 14 samples.

Results

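MHC class II molecules are the cell surface receptors with which macrophages, dendritic cells and B cells show peptides from engulfed material to CD4+ T cells. An alpha and a beta chain assemble in the endoplasmic reticulum on the invariant chain (*Cd74*), which blocks the groove until endosomal proteases cut it down to the fragment CLIP. H2-DM then exchanges CLIP for peptide, H2-DO restrains H2-DM, and the co-activator CIITA, recruited to the X and Y boxes of class II promoters, switches on the whole set of genes. Of the 24982 genes listed in the count table, 10 make up the set described here, chosen by gene name. The table writes them in capitals (CIITA, CD74, H2-AA, H2-AB1, H2-EB1, H2-DMA, H2-DMB1, H2-DMB2, H2-OA and H2-OB). They are the co-activator *Ciita*, the invariant chain *Cd74*, the classical chains *H2-Aa*, *H2-Ab1* and *H2-Eb1*, the H2-DM chains *H2-DMa*, *H2-DMb1* and *H2-DMb2*, and the H2-DO chains *H2-Oa* and *H2-Ob*. All 10 were among the 13136 genes with enough reads to be tested.

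The genes were followed in mature macrophages from the colon and cecum lamina propria of untreated C57BL/6 mice, 5 weeks old and kept under specific pathogen free conditions. Every mouse carried *Cdcs1*, a locus that raises susceptibility to colitis, so no group is free of it. WT mice carried *Cdcs1* alone (n = 4), IL10RAKO mice also lacked the interleukin 10 receptor alpha chain (*Cdcs1*, *Il10ra* -/-, n = 4), and DKO mice lacked in addition the chemokine receptor CCR2 (*Cdcs1*, *Il10ra* -/-, *Ccr2* -/-, n = 4). A further WT mouse (mouse 11) and a single CCR2KO mouse (*Cdcs1*, *Ccr2* -/-, mouse 6) were sequenced too and are given as values outside the tests. Each library came from 1 mouse. The paper reports spontaneous colitis in IL10RAKO mice of this age, less severe colitis in DKO mice and no histologic signs of it in wild-type mice. Effects of genotype and of inflammation therefore cannot be told apart in comparisons between these groups. Living MHCII+ Ly6C- cells that carried CD64, CD11b and CD45 and lacked Ly6G and CD103 were sorted, and cDNA was made from 1 ng of RNA. Class II protein at the surface was therefore part of the sort gate, and the libraries cannot show how many macrophages of a genotype carried it. In such bulk libraries, fewer cells of a type and less RNA per cell cannot be told apart.

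Reads counted on genes numbered 13085287 to 21024878 in a WT mouse (median 16882786, n = 4). In IL10RAKO mice the total lay between 15473135 and 20347283 (median 17695603), and in DKO mice between 14054105 and 21216468 (median 18310547). WT mouse 11 had 12153000 counted reads and the CCR2KO library 17112375. Levels are given as CPM, the reads of a gene per 1000000 reads counted on the tested genes after scaling by TMM (edgeR's trimmed mean factors), and as RPKM, which is CPM per kilobase of exon, where genes are compared with each other. At these depths a count of 3 reads corresponds to 0.124 to 0.220 CPM, far below every value of the 10 genes.

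The targeted genes matched the labels in every library. *Il10ra* stood at 380, 217, 251 and 290 CPM in the 4 WT mice, at 4.89 to 11.2 CPM in the IL10RAKO mice and at 3.41 to 7.59 CPM in the DKO mice. *Ccr2* stood at 514 to 702 CPM in WT mice, 361 to 627 CPM in IL10RAKO mice and 3.92 to 6.68 CPM in DKO mice. The CCR2KO library had 182 CPM of *Il10ra* and 4.29 CPM of *Ccr2*. As for the cell type, all 8 macrophage markers listed (*Csf1r*, *Adgre1*, *Cd68*, *Fcgr1*, *Itgam*, *Cx3cr1*, *Mertk* and *C1qa*) had reads in every library, and their summed level was 5582 to 7330 CPM for WT, 4807 to 7246 CPM for IL10RAKO and 4178 to 7793 CPM for DKO mice. Single markers differed by edgeR, however. *Fcgr1*, which encodes CD64, was higher by 0.83 on the log2 scale in IL10RAKO against WT, and in DKO mice *Mertk* was higher by 0.98 while *Cx3cr1* (-1.21) and *Adgre1* (-1.05) were lower. Of the Ly6C genes, whose protein the sort selected against, *Ly6c2* read 5.80 to 7.64 CPM for WT, 38.4 to 177 CPM for IL10RAKO and 74.9 to 89.0 CPM for DKO mice and rose by 4.06 and 3.65, whereas *Ly6c1* fell by 2.18 and 1.95. These genes are close paralogues, so the split of reads between them is uncertain. The part of these differences in the class II values was not tested. WT mouse 11 stood apart in its epithelial markers (*Epcam*, *Krt8*, *Krt20*, *Vil1* and *Cdh1*), which summed to 2424 CPM, against 946 CPM in WT mouse 10 and 36.4 to 182 CPM in the other 11 tested mice.

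Of the 10 genes, 8 lie close together on chromosome 17 (GRCm38, GENCODE vM21), in the order *H2-Oa* (chr17:34092340-34095234), *H2-DMa* (chr17:34119541-34139101), *H2-DMb2* (chr17:34143307-34151555), *H2-DMb1* (chr17:34153072-34160230), *H2-Ob* (chr17:34238903-34254414), *H2-Ab1* (chr17:34257689-34269419), *H2-Aa* (chr17:34282744-34287823, minus strand) and *H2-Eb1* (chr17:34305867-34316674). *Ciita* lies on chromosome 16 (chr16:10480059-10528418).

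Promoters from RefSeq (GRCm38.p6) were matched for 7 of the 10 genes (8 promoters), and the 250 bases before each start were searched on both strands for AGCAAC, the core of an X box, and for CCAAT, the Y box, which reads ATTGG on the other strand. AGCAAC followed after 10 to 40 bases by ATTGG on the same strand was found in 3 of the 8 promoters, those of *H2-Oa*, *H2-Ob* and *H2-Eb1*, and in 147 of all 32851 mouse promoters (0.447%). The 3 are shown because they carry the letters on which the CIITA complex is known to assemble, and *H2-Aa* is shown as a class II promoter in which CCAAT was found without AGCAAC. Capitals mark AGCAAC and CCAAT or ATTGG, and all are written 5′ to 3′ on the strand of the gene. They span chr17:34092271-34092350 (*H2-Oa*, plus strand), chr17:34238783-34238862 (*H2-Ob*, plus strand), chr17:34305767-34305846 (*H2-Eb1*, plus strand) and chr17:34287857-34287936 (*H2-Aa*, minus strand).
H2-Oa: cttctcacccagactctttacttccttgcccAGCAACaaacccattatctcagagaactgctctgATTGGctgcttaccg
H2-Ob: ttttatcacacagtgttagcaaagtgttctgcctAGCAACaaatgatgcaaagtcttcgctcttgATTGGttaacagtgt
H2-Eb1: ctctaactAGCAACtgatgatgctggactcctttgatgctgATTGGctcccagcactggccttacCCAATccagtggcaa
H2-Aa: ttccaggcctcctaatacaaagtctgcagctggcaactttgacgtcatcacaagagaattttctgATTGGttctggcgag

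In the 3 promoters with both motifs, AGCAAC began 77 (*H2-Oa*), 88 (*H2-Ob*) and 92 (*H2-Eb1*) bases before the RefSeq start. From AGCAAC to ATTGG there were 28, 25 and 27 bases, so the spacing was similar in both H2-DO chains and a classical beta chain. Counted with or without the other motif, CCAAT was found in 7 of the 8 promoters and in 33.8% of all promoters. AGCAAC was found in 3 of 8 and in 12.2%. None of the 6 promoters of the neighbouring genes *Tap1*, *Psmb8*, *Psmb9* and *Brd2* held this pair of motifs. A match describes these letters only and is no evidence of binding. Only exact letters were searched, so an X box with other letters is missed, and a promoter without AGCAAC may still hold an X box.

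Together the 10 class II genes took 5.94 to 7.27% of all counted reads in WT mice, 5.75 to 7.44% in IL10RAKO mice and 5.27 to 6.43% in DKO mice, ranges that overlap. Per length, the invariant chain led in every genotype. *Cd74* had 13912 ± 2566 RPKM in WT mice (SD, n = 4), *H2-Ab1* 6179 ± 786, *H2-Eb1* 4271 ± 333 and *H2-Aa* 1808 ± 139. These 4 levels did not overlap between neighbours in this order, in any of the 3 genotypes. H2-DM followed at 452 ± 54.0 RPKM for *H2-DMb1*, 207 ± 16.2 for *H2-DMa* and 164 ± 87.4 for *H2-DMb2*, with *H2-DMa* and *H2-DMb2* overlapping in WT and DKO mice. The length used covers all annotated exons of a gene, 1681 bases for *H2-DMb1* and 3448 for *H2-DMa*, so the order per length depends on it. In CPM both overlapped in WT mice, at 662 to 847 for *H2-DMb1* and 662 to 762 for *H2-DMa*. H2-DO and the co-activator were lowest, at 50.7 ± 20.5 RPKM for *H2-Oa*, 32.7 ± 10.5 for *H2-Ob* and 32.6 ± 4.27 for *Ciita* in WT mice. The ranges of *H2-Ob* and *Ciita* overlapped in all 3 genotypes. With 9535 exon bases, *Ciita* ranked higher in CPM, at 263 to 346 in WT mice against 126 to 249 for *H2-Ob*.

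**Figure D1:**
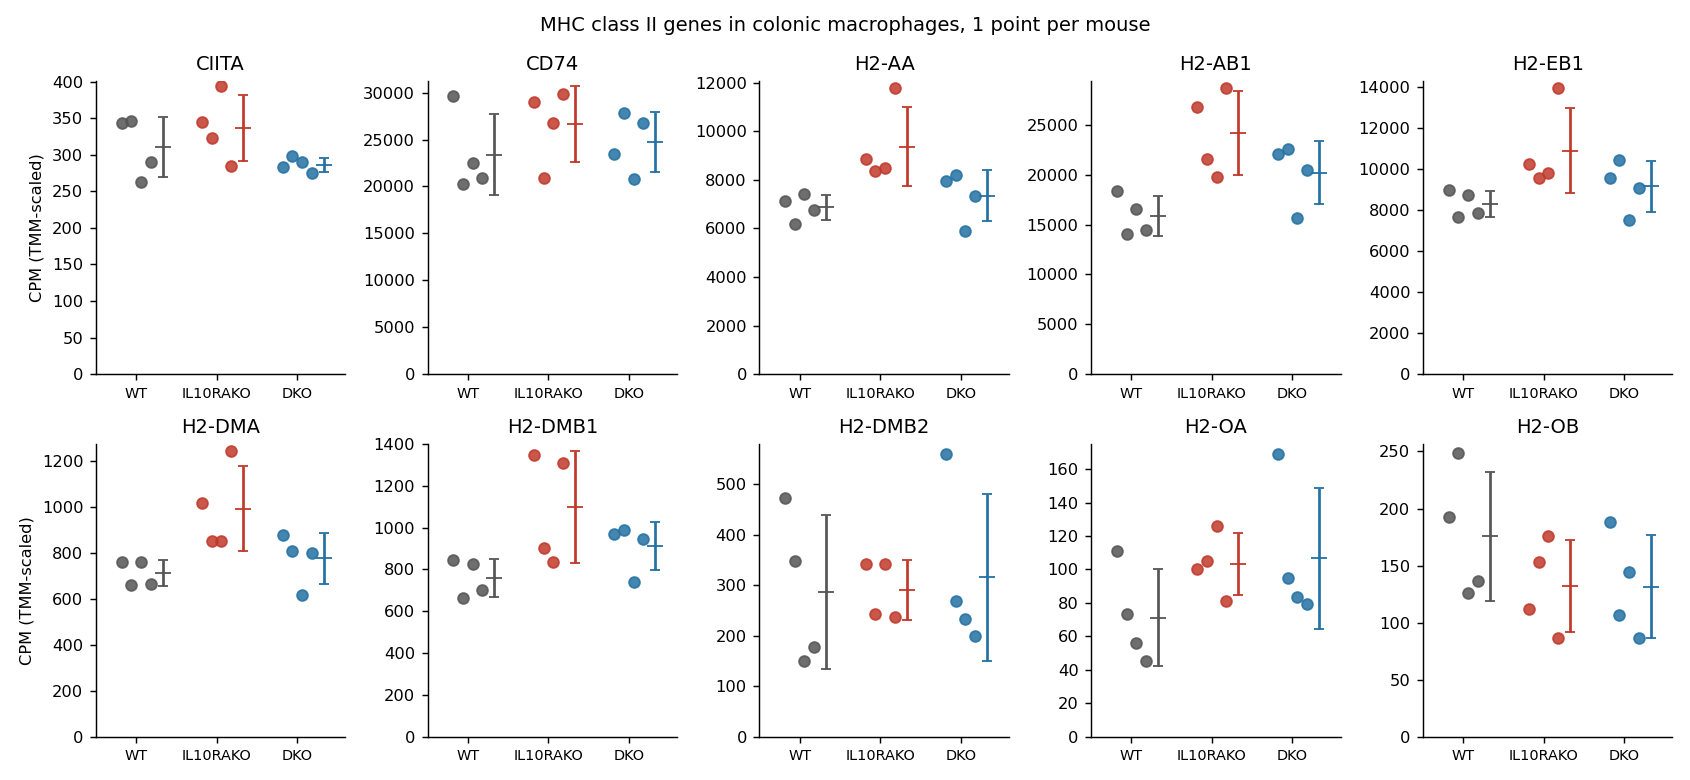
Level of each of the 10 class II genes (CPM scaled by TMM, linear axes from 0), 1 point for each of 4 WT, 4 IL10RAKO and 4 DKO mice, with the mean and SD of the genotype beside the points. The IL10RAKO points lie above all WT points for *H2-Aa*, *H2-Ab1*, *H2-Eb1* and *H2-DMa*, and the genotypes overlap for the other 6 genes.

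Loss of IL10RA came with more *H2-Ab1* RNA, the beta chain of the I-A molecule, while no other class II gene passed the edgeR test. *H2-Ab1* read 18418, 14023, 16528 and 14502 CPM in the 4 WT mice and 26825, 21575, 19794 and 28658 CPM in the 4 IL10RAKO mice. The lowest IL10RAKO mouse lay above the highest WT mouse. The difference was 0.61 on the log2 scale (SE 0.174, 95% CI 0.24 to 0.98), or 1.53-fold, with an adjusted p of 0.0285 in edgeR's quasi-likelihood test with Benjamini-Hochberg adjustment over all 13136 genes. That made 1 of 10 class II genes past the threshold of 0.05, against 15.8% of all genes tested (1143 higher, 8.70%, and 933 lower, 7.10%), a share no larger than the background. DESeq2 called 4 of 10 (*H2-Aa*, *H2-Ab1*, *H2-DMa* and *H2-DMb1*), against 20.1% of all genes. The call was close to the threshold, since it was lost without WT mouse 5 (adjusted p 0.0852), WT mouse 10 (0.0548), WT mouse 13 (0.0852), IL10RAKO mouse 1 (0.0703) or IL10RAKO mouse 8 (0.0730). It was also lost with no filter on low counts (adjusted p 0.0674), with at least 10 reads in every library (0.0615), with edgeR's bias-adjusted deviance (0.0862) and with limma on the pseudocounts (0.130). With library totals in place of TMM the difference was 0.29 (adjusted p 0.146).

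The partner chain *H2-Aa*, the alpha chain of I-A, read 7112, 6171, 7404 and 6773 CPM in WT mice and 8864, 8369, 8483 and 11778 CPM in IL10RAKO mice. The groups did not overlap, and mouse 8 alone stood well above the other IL10RAKO mice. With a log2 difference of 0.45 (95% CI 0.10 to 0.79) its adjusted p was 0.0759. *H2-Eb1*, the beta chain of I-E, read 8986, 7660.1, 8718 and 7849.7 CPM in WT mice and 10239.8, 9559, 9815 and 13971 CPM in IL10RAKO mice, again with mouse 8 on top and no overlap. Its log2 difference was 0.39 (95% CI 0.04 to 0.74, adjusted p 0.125 in the same edgeR test). C57BL/6 mice make no I-E alpha chain, and the pseudogene row *H2-Ea-ps* had only 0 to 30 reads per library. Non-overlapping values were seen in 4 of the 10 genes, against 18.2% of all genes tested, and an unadjusted p under 0.05 in 5 of 10, against 29.1%.

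Invariant chain RNA, from a gene on chromosome 18, did not separate the genotypes. *Cd74* read 29665, 20294, 22527 and 20944 CPM in WT mice, 29032, 20949, 26795 and 29807 CPM in IL10RAKO mice and 23407, 27777, 20845 and 26811 CPM in DKO mice. All 3 groups spanned much the same range, and WT mouse 4 was nearly as high as the highest IL10RAKO mouse. The log2 difference was 0.19 (95% CI -0.18 to 0.56) between IL10RAKO and WT and 0.08 (95% CI -0.29 to 0.45) between DKO and WT.

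*Ciita*, the switch of the set, was as even. It read 343, 346, 263 and 290 CPM in WT mice, 344, 324, 394 and 285 CPM in IL10RAKO mice and 284, 298, 289.9 and 275 CPM in DKO mice. The 4 DKO mice lay within a narrow band inside the WT range, with a coefficient of variation of 3.35%. The log2 differences were 0.12 (95% CI -0.19 to 0.42) for IL10RAKO and -0.12 (95% CI -0.42 to 0.19) for DKO against WT, so a change of *Ciita* RNA by 1 log2 unit lies outside both intervals.

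Among the H2-DM chains, *H2-DMa* read 762, 662, 760.3 and 666 CPM in WT mice and 1018, 855, 855 and 1246 CPM in IL10RAKO mice, without overlap. Its log2 difference of 0.48 (95% CI 0.13 to 0.83) had an adjusted p of 0.0612 in the edgeR test. *H2-DMb1* read 847, 662, 827 and 703 CPM in WT mice and 1349, 900.4, 835 and 1307 CPM in IL10RAKO mice, where mouse 7 fell inside the WT range, and differed by 0.53 (95% CI 0.14 to 0.92, adjusted p 0.0650). Without IL10RAKO mouse 7 both *H2-DMa* (0.55, adjusted p 0.0403) and *H2-DMb1* (0.64, adjusted p 0.0248) passed. The second beta chain gene, *H2-DMb2*, spread widely within genotypes, at 473, 347, 149 and 177 CPM in WT mice, 342, 242, 342 and 236 CPM in IL10RAKO mice and 558, 268, 234 and 200.2 CPM in DKO mice. The groups overlapped fully and the log2 difference between IL10RAKO and WT was 0.02 (95% CI -0.77 to 0.81), an interval that holds differences of either sign. Both beta chain genes share part of their sequence (16.1 and 15.8% of 75-base stretches), so some of their reads may have been assigned to either.

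H2-DO showed no call in either direction. *H2-Oa* read 111, 73.2, 56.2 and 45.0 CPM in WT mice, 100.4, 105, 126 and 80.9 CPM in IL10RAKO mice and 169, 94.7, 83.6 and 79.3 CPM in DKO mice. WT mouse 4 sat among the mutants and the other 3 WT mice lay below every mutant mouse. The log2 difference was 0.53 (95% CI -0.09 to 1.15) for IL10RAKO and 0.58 (95% CI -0.04 to 1.20) for DKO against WT, with adjusted p of 0.243 and 0.189 by edgeR. Without WT mouse 4 both passed, at 0.83 (adjusted p 0.0477) and 0.88 (adjusted p 0.0338). *H2-Ob* read 192, 249, 126 and 136 CPM in WT mice, 112, 153, 176 and 86.2 CPM in IL10RAKO mice and 188, 107, 144 and 86.6 CPM in DKO mice, with all groups overlapping. Its estimate in IL10RAKO against WT was the only negative value of the 10, -0.41 (95% CI -1.03 to 0.20, adjusted p 0.368).

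Over the whole set, 9 of 10 estimates were positive in IL10RAKO against WT, with a median log2 difference of 0.42, beside a median of -0.07 over all genes tested. These 9 estimates come from the same mice and are not separate observations. With library totals in place of TMM the median of all genes moved from -0.07 to -0.38 and the estimates of *Ciita*, *Cd74* and *H2-DMb2* turned negative.

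**Figure D2:**
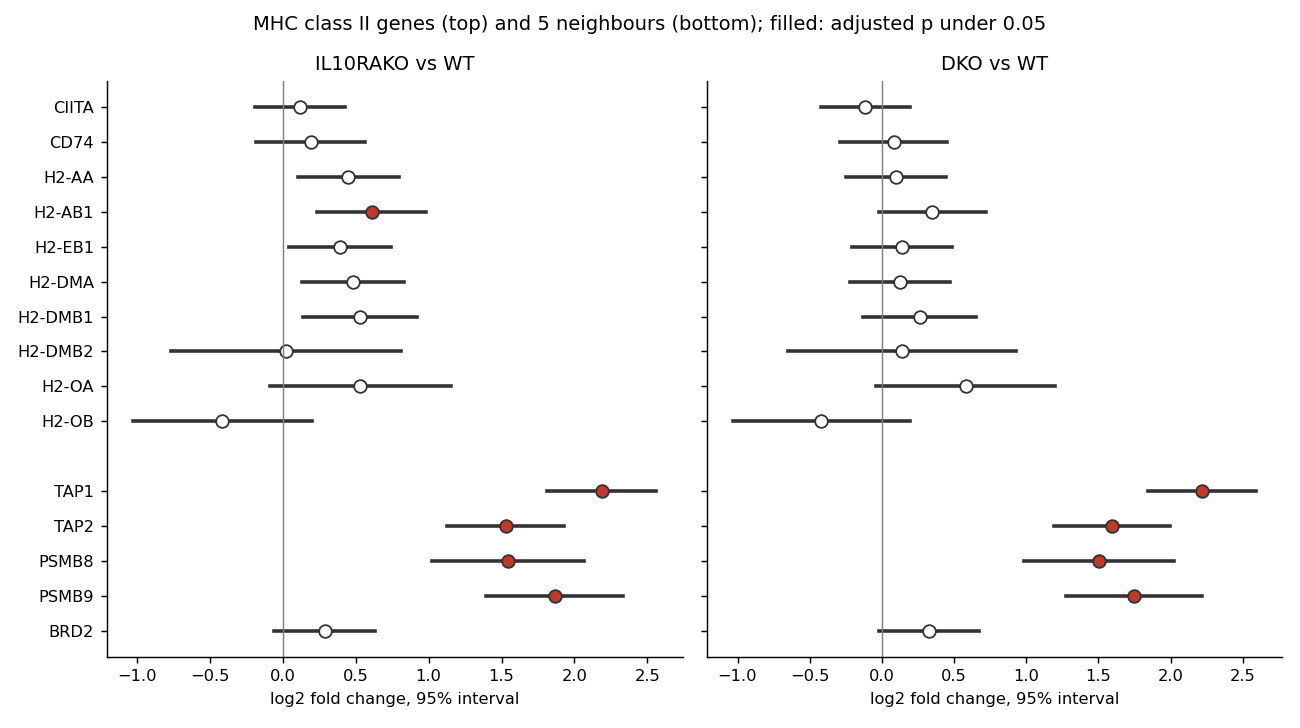
Log2 fold change against WT with its 95% confidence interval from the edgeR fit (horizontal axis) for the 10 class II genes and, below them, 5 genes of the class II region, in IL10RAKO (left) and DKO (right) mice. Filled points passed an adjusted p of 0.05, which among the class II genes holds for *H2-Ab1* in IL10RAKO mice (0.61) alone, while *Tap1*, *Tap2*, *Psmb8* and *Psmb9* lie at 1.50 or above in both.

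Between DKO and WT mice no class II gene separated the genotypes. *H2-Ab1* read 22115, 22613, 15689 and 20446 CPM in the DKO mice, with mouse 12 inside the WT range, and differed from WT by 0.35 on the log2 scale (95% CI -0.02 to 0.72, adjusted p 0.188). None of the 10 genes passed the edgeR test, against 18.5% of all genes (1213 higher, 9.23%, and 1211 lower, 9.22%). None had an unadjusted p under 0.05 either, against 31.3% of all genes, and DESeq2 also called 0 of 10. Non-overlapping values were found in 0 of 10, against 22.2% of all genes. The median log2 difference was 0.13 (all genes -0.06), with estimates from -0.42 (*H2-Ob*) to 0.58 (*H2-Oa*). IL10RAKO and DKO mice were compared with the same 4 WT mice, and both sets of differences share them.

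Within IL10RA deficiency, the further loss of CCR2 was tested directly. *H2-Aa* read 7972, 8215, 5882 and 7340.5 CPM in DKO mice, all below the lowest IL10RAKO mouse, and differed by -0.35 on the log2 scale (95% CI -0.69 to -0.01, unadjusted p 0.0467). *H2-DMa* read 881, 811, 617 and 801 CPM in DKO mice and differed by the same -0.35 (95% CI -0.70 to -0.01, unadjusted p 0.0469), with DKO mouse 3 inside the IL10RAKO range. Neither passed after adjustment over all genes (adjusted p 0.9999 by edgeR), and 0 of the 10 genes did, against 0.0457% of all genes (2 higher, 0.0152%, and 4 lower, 0.0305%). DESeq2 called 0 of 10 as well. An unadjusted p under 0.05 was found for 2 of 10, against 2.95% of all genes, and non-overlapping values for 1 of 10 (*H2-Aa*), against 2.41%. The median log2 difference was -0.24 (all genes -0.01). All 10 confidence intervals lay within 1 log2 unit of 0, so in these mice a 2-fold effect of CCR2 loss on any class II gene lies outside its interval, while smaller differences were not resolved. The CCR2KO library, with no replicate, had 16134 CPM of *H2-Ab1*, 6721.5 CPM of *H2-Aa* and 249 CPM of *Ciita*.

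Ratios within a library do not depend on how libraries are scaled. The log2 ratio of *Cd74* reads to *H2-Ab1* reads was 0.55 ± 0.10 in WT mice (SD, n = 4), 0.14 ± 0.21 in IL10RAKO mice and 0.29 ± 0.15 in DKO mice. The ratio was lower in all 4 IL10RAKO mice and in all 4 DKO mice than in any WT mouse. The difference was -0.41 for IL10RAKO and -0.25 for DKO. In DKO mice the ratios of *H2-Aa* (-0.25), *H2-Eb1* (-0.21) and *H2-DMa* (-0.23) to *H2-Ab1* also lay below all WT values. Each of these 5 ratios had an exact permutation p of 0.0286 (two-sided), the smallest that 4 mice against 4 can give, and over the 24 ratio tests the adjusted p was 0.137, so none passed. These 5 ratios all have *H2-Ab1* as denominator and share the 4 WT mice, so they are not separate observations. No ratio separated DKO from IL10RAKO mice.

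Part of the route from interferon gamma to *Ciita* rose by more than any class II gene. *Irf1*, an interferon-induced transcription factor that acts on a *Ciita* promoter, read 254 to 441 CPM for WT, 825 to 1376 CPM for IL10RAKO and 917 to 1461 CPM for DKO mice, without overlap with WT. It rose by 1.75 (SE 0.222) in IL10RAKO and 1.74 (SE 0.222) in DKO mice on the log2 scale, with adjusted p of 9.93e-05 and 8.90e-05 by edgeR. The feedback inhibitor *Socs1* rose by 2.30 and 2.54, and the receptor kinase *Jak2* by 1.28 and 1.38. The receptor chains *Ifngr1* and *Ifngr2*, *Jak1* and *Usf1* did not pass in either comparison, so 3 of 7 genes of this list were higher and none lower in each. Of all tested genes 8.70% were higher and 7.10% lower in IL10RAKO against WT, and 9.23% higher and 9.22% lower in DKO against WT. The class II transcription list (*Rfx5*, *Rfxap*, *Rfxank*, *Nfya*, *Nfyb*, *Nfyc* and *Creb1*), the proteins that bind X and Y boxes, had 0 of 7 past the threshold in each comparison. At an unadjusted p under 0.05 by edgeR it had 1 of 7 (*Nfyc*), a share below the 29.1% (IL10RAKO) and 31.3% (DKO) of all genes. *Nfyc* had the largest estimate, 0.59 in IL10RAKO and 0.55 in DKO mice.

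Endolysosomal genes that prepare the groove and its peptides were higher in part. *Ctss*, the protease of the last step of invariant chain cleavage, read 1875 to 2641 CPM for WT, 2925 to 5518 CPM for IL10RAKO and 3356 to 4181 CPM for DKO mice, without overlap with WT. It rose by 0.86 (SE 0.195) in IL10RAKO and 0.78 (SE 0.194) in DKO mice. *Sppl2a*, which clears the remaining membrane stub of the invariant chain, rose by 1.06 and 1.25, the thiol reductase *Ifi30* by 1.00 and 0.69, and cathepsin Z (*Ctsz*) by 1.07 and 1.19. *Ctsd* rose by 0.79 in DKO mice and had an estimate of 0.35 (adjusted p 0.318 by edgeR) in IL10RAKO mice, while its difference between the mutants did not pass. That made 4 and 5 of 9 genes higher and none lower. Among all tested genes 8.70% were higher and 7.10% lower in IL10RAKO, and 9.23% and 9.22% in DKO mice.

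Among genes of class II turnover and traffic, the tetraspanin *Cd82* rose by 0.52 in IL10RAKO and 0.70 in DKO mice and the tetraspanin *Tspan32* fell by 0.67 and 0.93. *March1*, the ubiquitin ligase that sends class II molecules to lysosomes, rose by 0.73 in DKO mice (adjusted p 0.0103) and had an estimate of 0.51 in IL10RAKO mice (adjusted p 0.0702). *March8*, a second ligase of this family, had estimates of the opposite sign, at 0.499 of the WT level in IL10RAKO (adjusted p 0.0622) and 0.657 in DKO mice (adjusted p 0.244 by edgeR). Of the 8 genes of this list 1 was higher and 1 lower in IL10RAKO and 2 higher and 1 lower in DKO mice. The median log2 differences were -0.29 and -0.07. Over all 13136 genes 8.70% were higher and 7.10% lower in IL10RAKO, and 9.23% and 9.22% in DKO mice. The counts of this list in IL10RAKO mice were near those shares. Extracellular ligands of the invariant chain were higher as well. *Mif* read 67.4 to 85.3 CPM for WT, 176 to 425 CPM for IL10RAKO and 245 to 304 CPM for DKO mice and rose by 1.92 and 1.85, and its homologue *Ddt* rose by 1.72 and 1.60. Of the partner receptors, *Cxcr2* passed the test on very few reads (0, 0, 4 and 0 for the WT mice, 6 to 19 per IL10RAKO mouse and 8 to 40 per DKO mouse), and *Cd44* and *Cxcr4* did not pass. *Cxcr2* is also a neutrophil gene, and 4 of 5 neutrophil markers (*S100a8*, *S100a9*, *Csf3r*, *Cxcr2* and *Mmp9*) were higher in each mutant and 1 lower in IL10RAKO mice (*Mmp9*), with summed levels of 101 to 154 CPM for WT, 149 to 302 CPM for IL10RAKO and 158 to 275 CPM for DKO mice, led by *Csf3r*. The sort excluded Ly6G+ cells, and the part of neutrophils in the *Cxcr2* value was not tested.

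**Figure D3:**
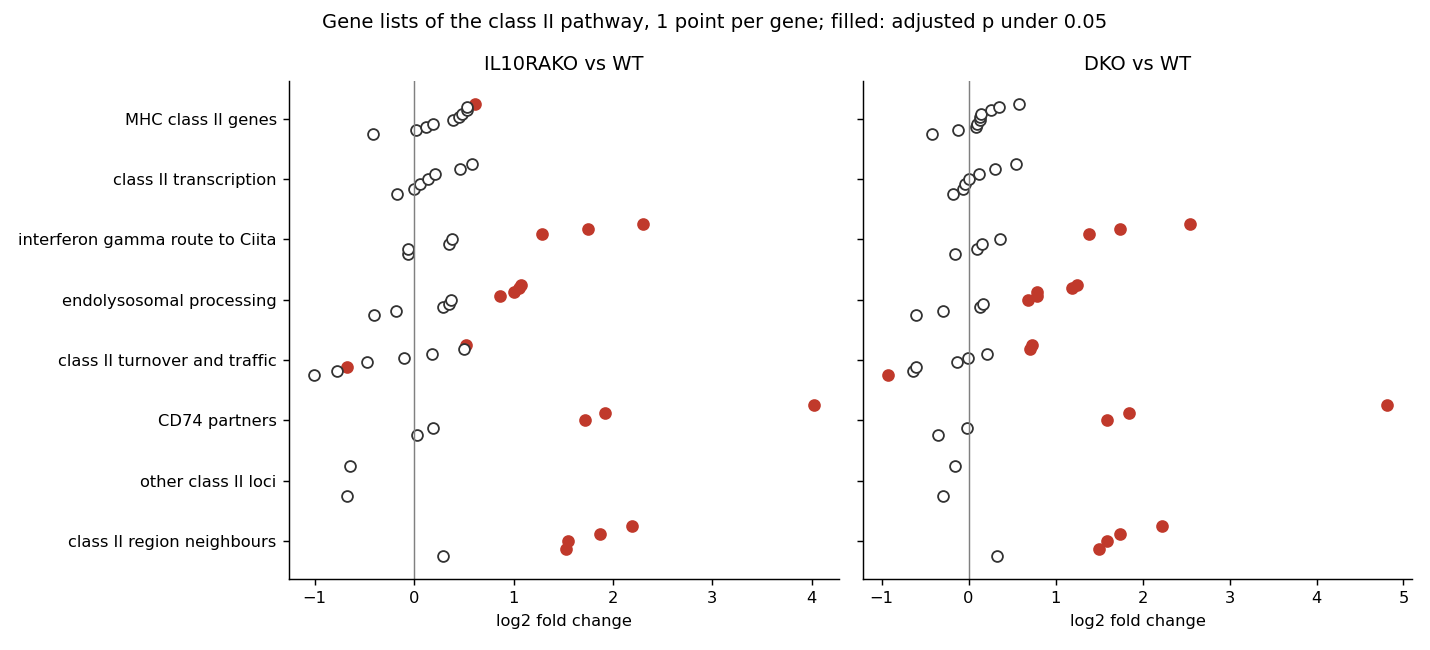
Log2 fold change against WT (horizontal axis) of the 10 class II genes and of 43 other genes of the pathway, 1 point per gene in rows by list, for IL10RAKO (left) and DKO (right) mice, with filled points for genes past an adjusted p of 0.05. The interferon gamma, endolysosomal, CD74 partner and region neighbour lists hold filled points above 1, and the class II transcription list holds no filled point.

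In all, 15 of the 43 pathway genes were higher and 1 lower in IL10RAKO against WT, 17 higher and 1 lower in DKO against WT, and 0 passed between DKO and IL10RAKO (1 of 43 at an unadjusted p under 0.05). The shares of all tested genes were 8.70% higher and 7.10% lower in IL10RAKO and 9.23% higher and 9.22% lower in DKO against WT. Between DKO and IL10RAKO mice 0.0457% of all genes passed and 2.95% had an unadjusted p under 0.05 by edgeR. The median log2 difference over the 43 was 0.35 and 0.21 in the comparisons with WT. None of the genes that passed changed sign with RLE factors or library totals.

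Genes of the MHC class I pathway lie between the class II genes and differed far more. *Tap1* and *Psmb9*, which serve peptide supply to MHC class I, start at -70.1 and -69.9 kb from the *H2-Ab1* start, between *H2-DMb1* and *H2-Ob*. *Tap1* read 156 to 228 CPM for WT, 636 to 1000.4 CPM for IL10RAKO and 770.1 to 941 CPM for DKO mice and rose by 2.19 (SE 0.175) and 2.22 (SE 0.175). *Psmb9* rose by 1.87 and 1.75, *Psmb8* by 1.54 and 1.50 and *Tap2* by 1.53 and 1.59, while *Brd2*, a chromatin reader next to *H2-DMa*, had estimates of 0.29 and 0.33 and did not pass. Within 250 kb of the start of *H2-Ab1*, 8 class II genes were tested with a median log2 difference of 0.46 in IL10RAKO and 0.14 in DKO mice. The 18 other genes there had medians of -0.13 and -0.09, with 4 higher and 2 lower (*H2-Ke6* and *Btnl2*) in IL10RAKO and 4 higher and 1 lower (*H2-Ke6*) in DKO mice. The whole tested set had 8.70% higher and 7.10% lower in IL10RAKO, and 9.23% and 9.22% in DKO mice.

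**Figure D4:**
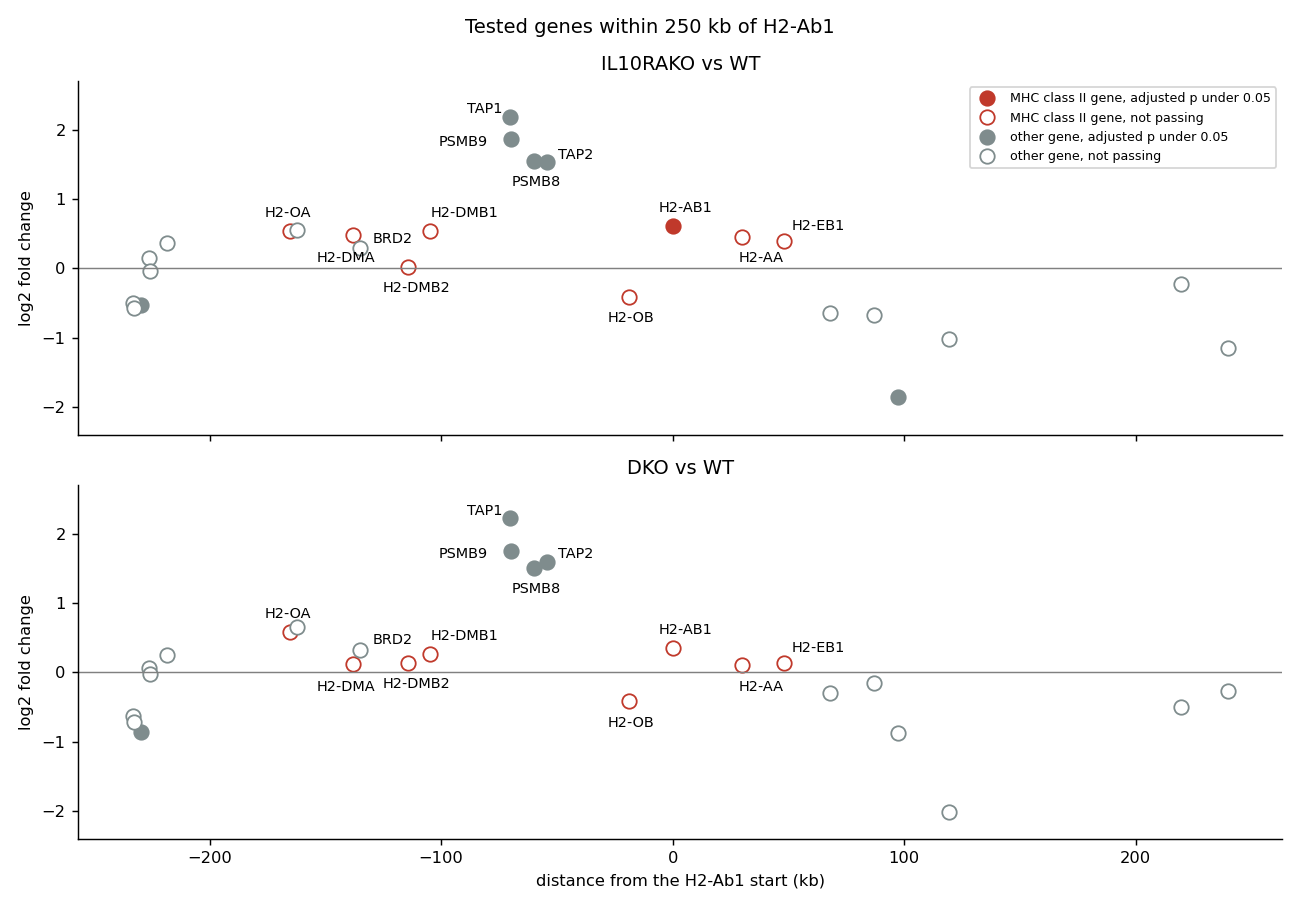
Log2 fold change against WT (vertical axis) of each tested gene within 250 kb of the *H2-Ab1* start, by distance from that start in kb (horizontal axis), with class II genes in red, other genes in grey and filled points past an adjusted p of 0.05, for IL10RAKO (top) and DKO (bottom) mice. *Tap1*, *Psmb9*, *Psmb8* and *Tap2* lie at 1.50 or above between class II genes that lie at 0.61 or below.

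Within genotypes the 10 genes fell into sets by how they varied. In log2 CPM over the 12 libraries *H2-Aa* and *H2-Eb1* had a Pearson r of 0.98, *H2-Aa* and *H2-DMa* 0.97, and *H2-Ab1* and *H2-DMb1* 0.96. In deviations from genotype means the same pairs had r of 0.97, 0.94 and 0.95. These chains share their high and low mice, with IL10RAKO mouse 8 at or near the top and DKO mouse 12 at or near the foot of the mutant mice. In deviations from genotype means *H2-DMb2* and *H2-Oa* had an r of 0.92, *H2-DMb2* and *H2-Ob* 0.72, and *H2-Oa* and *H2-Ob* 0.73. Over the 12 libraries this second set was looser, with r of 0.83, 0.58 and 0.29 for the same pairs. *Ciita* ran with this second set in deviations from genotype means, with r of 0.71 for *H2-Ob*, 0.66 for *H2-DMb2* and 0.59 for *H2-Oa*, against -0.33 for *H2-Ab1*. Over libraries its r was 0.53, 0.54, 0.41 and 0.02 in the same order. *H2-DMb1* and *H2-DMb2*, neighbours that encode the same chain type, had an r of 0.09 within genotypes. These correlations describe 12 shared libraries and carry no test.

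B cells express class II genes of both sets, and H2-DO is known above all from B cells and thymus. B cell markers varied between the libraries. Of 7 markers listed, 5 were in the table (*Ms4a1*, *Cd79a*, *Cd79b*, *Pax5* and *Cr2*), all with reads in each of the 12 libraries and *Cd79a* the most abundant. Their summed level was 984, 889, 319 and 440.02 CPM in WT mice, 513, 526, 784 and 278 CPM in IL10RAKO mice and 1048, 390.3, 547 and 396 CPM in DKO mice. The genotypes overlapped and none of the 5 passed between any of them. WT mouse 11, with 83.5 CPM of these markers, had the lowest *H2-Ob* (52.8 CPM), *H2-Oa* (27.6 CPM) and *H2-DMb2* (131 CPM) of all 14 libraries, and its *H2-Ab1* (14316 CPM) and *Ciita* (389 CPM) were within or above the WT range. That library also stood apart in general, with reads on 11670 genes, against 13485 or more in each of the 13 other libraries, and low levels of other genes (*Tap1* at 67.3 CPM and *Mif* at 29.1 CPM).

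Over the 12 tested mice, *H2-Ob* had a Pearson r of 0.871 (permutation p 0.00032) and a Spearman rho of 0.902 (permutation p 0.00012) with the summed B cell markers on the log2 scale. Without the mice farthest from the median of the markers (WT mouse 4 and DKO mouse 3) r was 0.862, and in deviations from genotype means it was 0.913. *H2-DMb2* had an r of 0.843 (permutation p 0.0007) and a rho of 0.776 (permutation p 0.00448), with r of 0.701 without those mice and 0.886 within genotypes. *H2-Oa* had an r of 0.606 (permutation p 0.0352) and a rho of 0.601 (permutation p 0.0423), with r of 0.372 without those mice and 0.860 within genotypes, so its pooled r rests in part on them. *Ciita* had an r of 0.590 (permutation p 0.0449) and a rho of 0.469 (permutation p 0.127), with r of 0.819 without those mice and 0.785 within genotypes. The other 6 genes had r between -0.40 and -0.14. The relation was examined after the values were seen, for 10 genes, and over these 10 the permutation p of r was 0.0032 for *H2-Ob*, 0.0035 for *H2-DMb2* and 0.112 for *H2-Oa* and *Ciita* after adjustment. For the r within genotypes, with mice exchanged only inside a genotype, the adjusted exact permutation p was 0.00989 for *H2-Ob*, *H2-DMb2* and *H2-Oa* and 0.0302 for *Ciita*.

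A slope on the log2 marker sum was therefore fitted within genotypes for every gene, with adjustment over all 13136. Of these, 97 (0.738%) passed, 95 of them (0.723%) with a positive slope. The genes tested include the 5 markers that make up the sum. *H2-Ob* changed by 0.62 log2 units for each log2 unit of the markers (SE 0.108, adjusted p 0.0140 by edgeR), *H2-DMb2* by 0.79 (SE 0.133, adjusted p 0.0115) and *H2-Oa* by 0.57 (SE 0.117, adjusted p 0.0393). *Ciita* had a slope of 0.18 (adjusted p 0.538), and the 6 others had negative slopes with adjusted p of 0.796 or more. With each of the 5 markers left out of the sum in turn, *H2-Ob* passed 5 of 5 times (adjusted p 0.0104 to 0.0178), while *H2-DMb2* and *H2-Oa* passed 4 of 5 times and not without *Cd79a* (adjusted p 0.0598 and 0.159 by edgeR), so both calls depend on which markers are summed. With the marker sum as a covariate, *H2-Oa* passed against WT in both mutants, at 0.72 in IL10RAKO (adjusted p 0.0152) and 0.65 in DKO mice (adjusted p 0.0222), and *H2-Ab1* passed in IL10RAKO as before. The sort asked for CD64 and CD11b, and the B cell marker sum was 3.83% (IL10RAKO mouse 8) to 25.1% (DKO mouse 3) of the macrophage marker sum. The markers show RNA of B cell genes in the libraries and not where it came from, and its source was not tested.

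**Figure D5:**
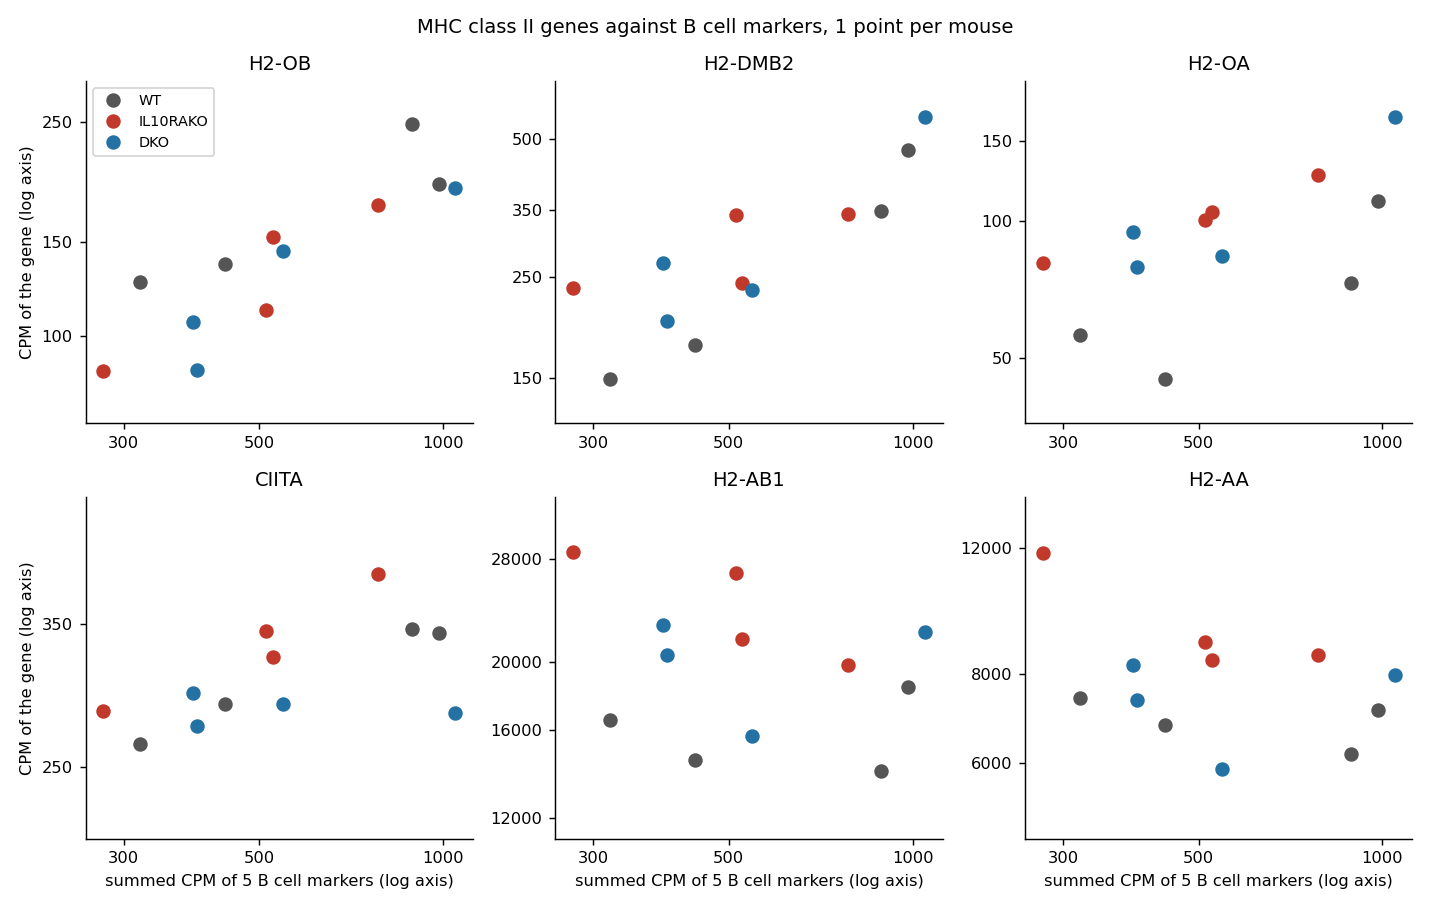
Level of *H2-Ob*, *H2-DMb2*, *H2-Oa*, *Ciita*, *H2-Ab1* and *H2-Aa* (CPM, log axis) against the summed level of 5 B cell markers (CPM, log axis), 1 point per mouse, coloured by genotype (n = 4 each). *H2-Ob* rises with B cell marker RNA over the 12 mice (r of 0.871), with some neighbouring mice out of order in WT and DKO, while *H2-Ab1* has an r of -0.27.

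Dendritic cells also carry much class II, and their markers differed between genotypes. The 8 conventional dendritic cell markers (*Flt3*, *Zbtb46*, *Xcr1*, *Clec9a*, *Ccr7*, *Cd209a*, *Batf3* and *Dpp4*) all had reads in the 12 libraries and summed to 1518, 1038, 391 and 427 CPM in WT mice, 1650 to 2061 CPM in IL10RAKO mice and 1130 to 1958 CPM in DKO mice, with *Ccr7* the most abundant. Without *Ccr7* the other 7 summed to 174 to 597 CPM for WT, 211 to 511 CPM for IL10RAKO and 156 to 272 CPM for DKO mice, and all genotypes overlapped, whereas the full sum overlapped between DKO and WT mice but not between IL10RAKO and WT mice. In IL10RAKO mice 4 of 8 were higher (*Xcr1* by 2.45, *Clec9a* by 1.83, *Ccr7* by 1.60 and *Dpp4* by 0.82) and 1 lower (*Batf3*). In DKO mice 3 were higher (*Clec9a* by 1.86, *Ccr7* by 1.42 and *Dpp4* by 0.78) and 2 lower (*Batf3* and *Cd209a*). For all tested genes the shares were 8.70% higher and 7.10% lower in IL10RAKO, and 9.23% and 9.22% in DKO mice. *Xcr1* and *Clec9a*, markers of cross-presenting dendritic cells, were low in level, at 1.45 to 18.3 and 0.290 to 9.34 CPM over the 12 mice. The sort asked for CD64 and CD11b and excluded CD103. The markers do not show where this RNA came from. The part of dendritic cells in the *H2-Ab1* difference was not tested. Fibroblast markers (*Col1a1*, *Col1a2*, *Col3a1*, *Dcn*, *Lum* and *Pdgfra*) went the other way, with 6 of 6 lower in each mutant and summed levels of 294 to 577 CPM for WT, 15.0 to 53.7 CPM for IL10RAKO and 16.1 to 67.0 CPM for DKO mice, and their part was not tested either.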

How the data were processed

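RNA of sorted colonic macrophages was sequenced as paired-end SmartSeq v4 libraries, 1 per mouse. The authors aligned reads to mm10 with STAR and deposited whole-number counts per gene for 14 libraries. They also deposited edgeR pseudocounts, a score that adjusts counts to a common library size, for 12 libraries without WT mouse 11 and the CCR2KO mouse. The submitters' processing notes name STAR 2.5.1b, bcl2fastq 2.20 and edgeR 3.34.0. The annotation and strand setting are not given in the sources used here, so reads of *H2-Oa* may include those of an overlapping gene on the opposite strand (22.8% of its exon bases), as may *H2-DMa* (10.4%) and *Ciita* (3.45%). Of the per-sample columns, 0 were left unused. Genotypes came from the labels, which name no batch, and WT mouse 11 entered 1 alternative only.

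The counts were tested with edgeR 4.0.16 (R 4.3.3). Genes were kept with filterByExpr (minimum count 10), scaled with TMM, and 3 genotypes of 4 mice entered a single glmQLFit model, contrasted by glmQLFTest with Benjamini-Hochberg adjustment over all 13136 genes and a threshold of 0.05. Ratios within a library were compared with exact two-sided permutation tests. DESeq2 1.42.0 and limma 3.58.1 (pseudocount 1) were alternatives, beside other scalings, filters, dispersions and sets of libraries. A covariate for B cell markers was chosen with the values in view. Counting error alone is covered by the floor of 3 reads. No libraries of a genotype agreed within sampling noise (chi-square per degree of freedom of 30.0 or more over 22 pairs). Symbols matched GENCODE vM21 for 24490 of 24982 genes, which gave positions and exon lengths. Python 3.11.15, pandas 2.3.3, scipy 1.17.1 and matplotlib 3.10.9 served for tables and figures.

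The 10 genes, the pathway and marker lists and the tests were chosen with earlier results of these data known. Of these lists, 1 pathway gene and 1 B cell marker are not reported here and enter no count or sum of a list. Leaving out single B cell markers was an alternative added after seeing the data. The text names all 10 genes, the genes of each pathway list that passed, with up to 4 of smallest p per list, the targeted genes, marker genes, and the 5 genes most like the mean of the 10. *Ifngr1*, *Ifngr2*, *Jak1*, *Usf1*, *Cd44*, *Cxcr4*, *H2-Ke6* and *Btnl2* were named after their values were seen, to complete the lists.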

Additional observations from a re-analysis of the deposited data

Results flagged for a closer look

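In IL10RAKO mouse 8 *H2-Aa* stood at 13.52 on the log2(CPM + 1) scale, far above the other 3 IL10RAKO mice, which lay close together. In DKO mouse 12 *H2-DMb1* stood at 9.53 on that scale, far below the other 3 DKO mice. Of the 40 groups of mice examined (10 genes in WT, WT with mouse 11, IL10RAKO and DKO mice), 2 held such a mouse, and chance gives about 5% of groups. The CCR2KO library, which enters no test, had 896 CPM of *H2-DMb1*, above all 4 WT mice.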

How the results depend on the processing

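No paired analysis was possible because the genotypes hold different mice that share no replicate number. In IL10RAKO against WT, the number of class II genes past the threshold, 1 by the reported test, was 4 with DESeq2 (*H2-Aa*, *H2-Ab1*, *H2-DMa* and *H2-DMb1*, where DESeq2 called 20.1% of all genes), 3 with WT mouse 11 added (12.4% of all genes), 2 with the B cell covariate (*H2-Ab1* and *H2-Oa*, 16.1% of all genes), and 0 with library totals, with no filter, with at least 10 reads in every library, with the bias-adjusted deviance and with limma on the pseudocounts (10.4 to 20.8% of all genes). In DKO against WT it was 1 with the B cell covariate (*H2-Oa*, 19.0% of all genes) and 0 in the other settings that kept all mice. Leaving out each mouse in turn gave 0 to 3, 0 to 1 and 0 to 0 class II genes in the 3 comparisons. In these fits 10.9 to 19.0%, 12.5 to 22.3% and 0.0295 to 0.0738% of all genes passed, in the same order. Pathway genes past the threshold numbered 13 to 19, 16 to 19 and 0 to 0. Separated ratios numbered 1 to 4, 4 to 5 and 0 to 1. *H2-Ab1* in IL10RAKO mice passed in 13 of 23 alternatives (adjusted p 0.00469 to 0.146).

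Library totals moved the share of higher calls from 55.1 to 23.8% in IL10RAKO and from 50.0 to 25.9% in DKO mice, and the median of all genes to -0.38 and -0.32. They turned *Ciita* to -0.19, *Cd74* to -0.12 and *H2-DMb2* to -0.28 in IL10RAKO mice, and *Cd74* to -0.17, *H2-Aa* to -0.16, *H2-Eb1* to -0.12, *H2-DMa* to -0.13 and *H2-DMb2* to -0.10 in DKO mice. *H2-DMb2* in IL10RAKO mice was -0.024 with at least 10 reads in every library. Between DKO and IL10RAKO mice, *H2-Ob* was 0.0059 with DESeq2, 0.0058 with RLE, 0.054 with library totals, 0.0016 with no filter and 0.011 with only these genotypes fitted, *H2-Oa* was -0.0053 with limma and -0.077 with the B cell covariate, and *H2-DMb2* was -0.11 with that covariate. Without single mice, *H2-DMb2* ran from -0.19 to 0.38, -0.29 to 0.50 and -0.31 to 0.28 in the 3 comparisons, and between DKO and IL10RAKO mice *H2-Oa* ran from -0.26 to 0.17 and *H2-Ob* from -0.23 to 0.18. The cause was not tested. Over the 30 single-gene differences, the settings that kept all mice left 301 values with the same direction and side of the threshold, took 7 past it and 5 back, and changed the sign of 17.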

Other observations

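The genes whose log2 CPM ran most like the mean of the 10 class II genes over the 12 tested libraries were *Smu1* (Pearson r of 0.928), *Coro1a* (0.926), *Nop53* (0.923), *Sart1* (0.915) and *Syf2* (0.915). In deviations from genotype means they were *Serbp1* (0.970), *Pqbp1* (0.964), *Smu1* (0.950), *Gm13427* (0.949) and *Gmps* (0.944). These values describe 12 shared libraries and carry no test.

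T and NK cell markers (*Cd3e*, *Cd3d*, *Cd3g*, *Cd8a*, *Cd4*, *Nkg7* and *Ncr1*) summed to 110 to 132 CPM for WT, 62.3 to 117 CPM for IL10RAKO and 55.0 to 99.1 CPM for DKO mice, with all 4 DKO mice below the WT mice. Most of each sum was *Cd4*, which gut macrophages also express, and without it the others summed to 7.92 to 14.2 CPM for WT, 8.19 to 22.8 CPM for IL10RAKO and 8.08 to 33.7 CPM for DKO mice, with overlap. Of the 6 tested, *Cd4* was lower in both mutants (-0.84 and -0.90 on the log2 scale) and *Nkg7* higher in DKO mice (2.01). Plasmacytoid dendritic cell markers (*Siglech*, *Ccr9*, *Tcf4* and *Bst2*) summed to 192 to 266, 172 to 238 and 127 to 189 CPM in the same order, again with DKO mice below WT mice, and *Siglech* (-3.72 and -4.77) and *Tcf4* (-0.67 and -0.94) were lower in each mutant against WT by edgeR. The part of either marker list in the class II values was not tested.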
